A study of Streblospio benedicti with 24 samples.

Results

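In oocytes of *Streblospio benedicti*, a marine annelid, 60 coding genes were taken as those furthest apart between the reciprocal F1 crosses PL and LP. They are 60 of 20221 coding genes and of 26216 genes in all. A gene qualified when its 5 PL and 5 LP libraries did not overlap in CPM (the count of a gene per 1000000 counts on genes in its library), its PP and LL libraries did overlap, and its mean was at least 5 CPM in PL or in LP. Of 6808 coding genes with a mean of at least 5 CPM, 80 did not overlap between PL and LP, which is 1.18% of them. PP and LL overlapped in 78 of the 80, or 1.15%. The 60 with the largest absolute difference between the PL and LP means of log2(CPM + 1) were taken. The genes were thus chosen by their PL and LP values, and the differences between PL and LP are given as a description only. Each library pools a whole clutch and CPM is a share of its counts, so fewer oocytes holding a transcript and less of it per oocyte cannot be told apart.

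PL and LP females were F1 offspring of laboratory crosses between a planktotrophic (PP) and a lecithotrophic (LL) parent, named with the maternal allele first. PP females were planktotrophic descendants of worms from Bayonne, New Jersey, and LL females lecithotrophic descendants of worms from Long Beach, California. All were reared in isolation, so the oocytes were unfertilized. Each library is the pooled clutch of 1 female, with 5 PL, 5 LP, 7 PP and 7 LL libraries. The study's methods state that the F1 were sequenced apart from PP and LL, while the labels give 2 technical replicates for all F1 libraries, PP replicate 7 and LL replicates 6 and 7 but not for the other 11. Ages are not given in the labels, and no oocyte marker could be matched to these gene identifiers, so the tissue label was not checked against markers.

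An oocyte is loaded with maternal mRNA during oogenesis, and the early embryo runs on that store until it transcribes its own genome. Planktotrophic females of this species make many small eggs that become feeding larvae, while lecithotrophic females make few large eggs that develop on yolk. PL and LP females carry a nuclear genome from each morph, and differ in which morph was the mother and which the father. Whether the crosses shared individual parents is not stated in the sources used here. A transcript that follows the mother's morph would be placed towards PP in PL oocytes and towards LL in LP oocytes.

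Counts on genes were 7489256 to 32251684 per PL library, 12600190 to 23165841 per LP library, 13125307 to 43609048 per PP library and 10591254 to 29426670 per LL library, so that 1 read was worth 0.0310 to 0.134 CPM in PL and 0.0432 to 0.0794 CPM in LP. No library repeated another of its group within sampling noise. On CPM the median difference of PL minus LP over the 6808 coding genes was -0.11 on the log2 scale, against 0.04 after TMM scaling and 0.01 with DESeq2 size factors.

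Of the 60 genes, 22 were higher in PL and 38 higher in LP, beside 0.426% of the coding genes with PL above LP without overlap and 0.749% with LP above PL. The difference of means ranged from 0.67 to 3.88 in size on the log2(CPM + 1) scale, with a median of 1.14. It passed 2-fold in 40 genes and 4-fold in 8. Among all 6808 coding genes PL was the higher in 40.5% on CPM, so that the 38 genes higher in LP stand beside a background tilted the same way. The split depended on the scaling, since 60 genes taken anew by the same rule held 34 higher in PL after TMM scaling and 30 with DESeq2 size factors. With single libraries left out it held 14 higher in PL without LP replicate 4, 15 without PL replicate 2 and 32 without LP replicate 2. Of the 60 genes here, 44 still did not overlap between PL and LP after TMM scaling and 49 with DESeq2 size factors. The number of genes meeting the rule was 77 to 107 with most single libraries left out, but 126 without LP replicate 3, 144 without LP replicate 5, 204 without PL replicate 1, 251 without LP replicate 4 and 290 without PL replicate 2.

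**Figure D1:**
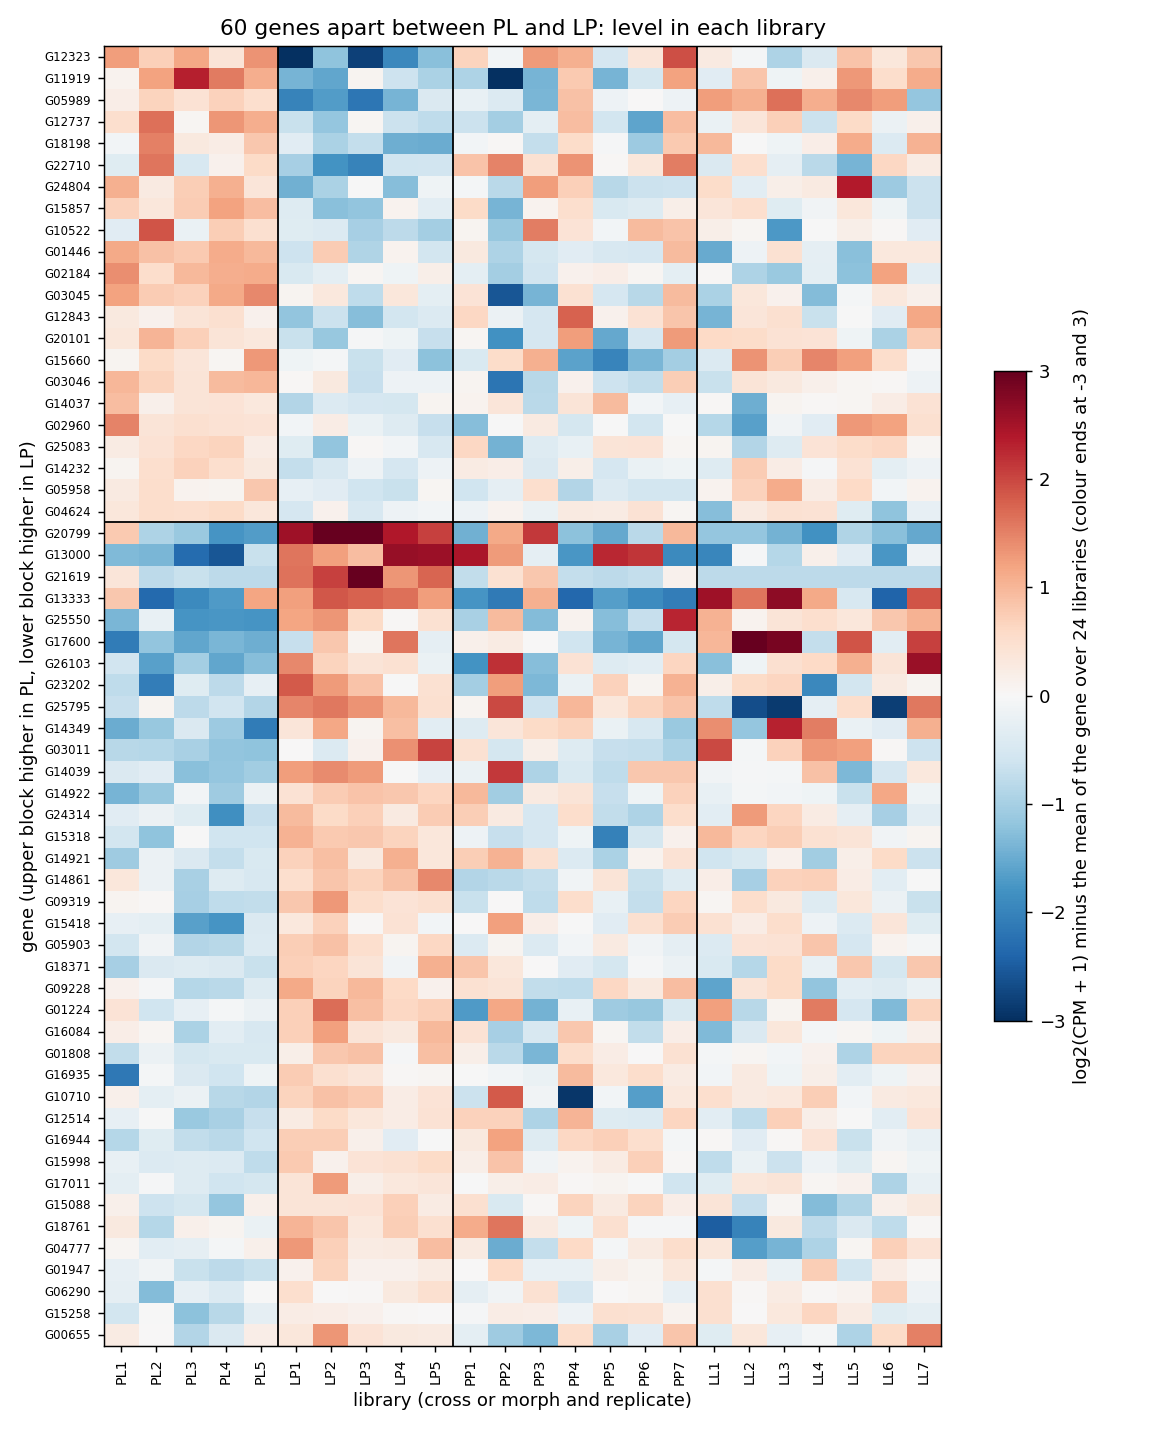
Level of the 60 genes in each library, as log2(CPM + 1) minus the mean of the gene over the 24 libraries, with PL, LP, PP and LL libraries from left to right. The 22 genes of the upper block were higher in PL and the 38 of the lower block higher in LP, as the rule fixed, and the PP and LL columns follow neither block as a whole.

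The genes higher in PL were led by G12323 (identifiers are given without the prefix Sbene_), which has no name in the sources used here. It stood at 51.2, 34.5, 47.6, 27.5 and 53.9 CPM in PL oocytes, against 1.27, 8.47, 2.11, 4.66 and 8.12 CPM in LP oocytes. PP oocytes held 14.2 to 81.6 CPM (median 33.8) and LL oocytes 10.5 to 38.5 CPM (median 25.3). PL lay within the range of the morphs, while all 5 LP libraries lay under the lowest of the 14 PP and LL libraries. The difference of PL minus LP was 3.06 on the log2 scale. No other gene of the set had its LP libraries under all 14 libraries of the morphs.

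G05989, named by the study as mitochondrial fumarate hydratase, the citric acid cycle enzyme that turns fumarate into malate, was also low in LP. It was at 18.5, 26.04, 22.1, 26.4 and 23.3 CPM in PL oocytes, against 3.25, 4.33, 2.77, 5.53 and 11.6 CPM in LP oocytes. PP oocytes held 5.59 to 30.1 CPM (median 14.3) and LL oocytes 6.64 to 52.1 CPM (median 39.5). The PL libraries lay close together and between the means of the morphs, and 4 of the 5 LP libraries lay under all PP and LL libraries, with LP replicate 5 inside both ranges. G22710, named as a zinc finger protein, was at 3.12, 15.2, 2.83, 4.82 and 6.95 CPM in PL oocytes, against 1.67, 0.533, 0.328, 2.504 and 2.58 CPM in LP oocytes. PP oocytes held 4.43 to 14.4 CPM (median 8.63), so that every LP library was under every PP library, and LL oocytes held 1.02 to 7.24 CPM (median 3.42), a range that met both crosses.

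G11919, without a name, showed the opposite arrangement, with PL standing high and LP at the level of PP. It was at 20.4, 44.7, 98.8, 57.3 and 41.4 CPM in PL oocytes, against 6.59, 5.73, 20.1, 12 and 9.26 CPM in LP oocytes. PP oocytes held 1.37 to 44.8 CPM (median 9.46) and LL oocytes 14.8 to 47.7 CPM (median 27.6). PL replicate 3 was the highest of all 24 libraries for this gene. G01446, G02184 and G03045 also had PL means above those of both morphs, with LP near the morphs.

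For G01446 the values were 8.204, 6.68, 6.19, 8.06 and 7.22 CPM in PL oocytes, against 1.75, 6.13, 1.27, 3.497 and 1.87 CPM in LP oocytes. The PP libraries held 1.22 to 7.15 CPM (median 2.01) and the LL libraries 0.472 to 4.73 CPM (median 2.78), so that PL was above every LL library and all PP libraries but replicate 7. For G02184 they were 9.24, 4.67, 6.71, 7.27 and 7.503 CPM in PL oocytes, against 1.82, 2.20, 3.09, 2.55 and 3.38 CPM in LP oocytes. PP libraries of G02184 held 0.914 to 3.46 CPM (median 2.19), all under PL, and LL libraries 0.665 to 8.05 CPM (median 2.13), with LL replicate 6 alone inside the PL range. G03045 was more abundant, at 86.4, 63.2, 60.2, 82.3 and 103 CPM in PL oocytes, against 38.97, 46.5, 21.4, 46.97 and 30.2 CPM in LP oocytes. Its PP libraries held 5.41 to 72.5 CPM (median 25.9) and its LL libraries 14.4 to 46.9 CPM (median 40.4), and the LL libraries were all under PL.

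The next identifier, G03046, followed G03045 closely. It was at 197, 155, 128, 189 and 194 CPM in PL oocytes, against 100, 119, 60, 87.1 and 87.98 CPM in LP oocytes, with 20.4 to 163 CPM (median 63.3) in PP and 61.2 to 128 CPM (median 101) in LL oocytes. Over the 24 libraries the log2 levels of the 2 genes had a Pearson correlation of 0.916. Among 4225 pairs of coding genes numbered 1 or 2 apart the median correlation was 0.09 and the upper decile 0.564. Genes of the set were chosen by PL and LP values that also enter their correlations. That choice pulls genes of the same side together and genes of opposite sides apart. The correlations within the set are thus a description and are not weighed against those pairs. What the numbering says about position in the genome is not stated in the sources used here, and reads shared between similar gene copies were not examined. G14921 and G14922, another pair numbered 1 apart, were both higher in LP and correlated at 0.562, while G14037 and G14039, numbered 2 apart, lay on opposite sides and correlated at -0.314.

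The other genes among the 12 with the largest PL excess were of modest level in all groups. G12737 was at 5.61, 13.6, 3.82, 10.6 and 8.899 CPM in PL oocytes, against 1.91, 1.07, 3.797, 1.99 and 1.72 CPM in LP oocytes. PP oocytes held 0.548 to 7.86 CPM (median 2.15) and LL oocytes 1.96 to 6.56 CPM (median 4.18). The highest LP and the lowest PL library of G12737 nearly touched, and both morphs met both crosses.

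G18198 was at 9.35, 29.9, 12.3, 11.8 and 17.98 CPM in PL oocytes, against 7.62, 4.67, 5.67, 2.98 and 2.87 CPM in LP oocytes. PP oocytes held 4.15 to 17.8 CPM (median 9.56) and LL oocytes 7.17 to 22.5 CPM (median 11.6), and both morphs overlapped PL and LP alike. G15857 was at 14.8, 11.5, 15.6, 21.5 and 17.6 CPM in PL oocytes, against 6.51, 3.13, 3.28, 9.497 and 6.89 CPM in LP oocytes. With 2.74 to 13.6 CPM (median 9.54) in PP and 5.25 to 12.9 CPM (median 8.097) in LL oocytes, both morphs spanned the gap between the crosses.

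G24804 was at 7.37, 3.87, 5.695, 7.36 and 4.19 CPM in PL oocytes, against 0.476, 1.07, 2.95, 0.647 and 2.66 CPM in LP oocytes. PP oocytes held 1.25 to 8.64 CPM (median 1.61) and LL oocytes 0.884 to 19.8 CPM (median 3.56), again across both crosses. G10522 was at 2.596, 15.6, 2.96, 6.57 and 5.33 CPM in PL oocytes, against 2.54, 2.40, 1.27, 1.64 and 1.22 CPM in LP oocytes, with 1.07 to 12.1 CPM (median 5.04) in PP and 0.375 to 4.15 CPM (median 3.67) in LL oocytes. In G10522 the gap between the crosses was under 1 CPM, one of 22 genes of the set with so small a gap, and such genes are in the set by the margin of few reads.

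Casein kinase I isoform alpha, the name the study gives to both G20799 and G21619, is a serine/threonine kinase that acts in Wnt signalling by phosphorylating beta-catenin. G20799 had the largest difference of the set, with 5.40, 0.935, 0.691, 0.0876 and 0.155 CPM in PL oocytes, against 20.6, 39.4, 68.6, 18.4 and 14.4 CPM in LP oocytes. PP oocytes held 0.277 to 14.97 CPM (median 1.12) and LL oocytes 0.0516 to 0.973 CPM (median 0.544). LL was thus uniformly low, PL was low apart from replicate 1, and LP was over every LL library and over all PP libraries but replicate 3. The PP libraries were split, with replicates 2, 3 and 7 at 7.09, 14.97 and 6.21 CPM and the other 4 at or under 1.12 CPM.

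G21619 repeated the pattern at a lower level. It was at 1.25, 0, 0.0988, 0 and 0 CPM in PL oocytes, against 4.37, 6.13, 13.4, 3.37 and 4.81 CPM in LP oocytes. PP oocytes held 0 to 2.04 CPM (median 0.0514), and LL oocytes had no count in any of the 7 libraries. Reads were aligned to the genome of planktotrophic worms, and how LL alleles of this gene align to it was not examined. All 5 LP libraries lay above all 14 libraries of the morphs. Pooled over libraries, LP held 577 counts or 6.71 CPM, which is at least 299.7-fold higher than the 0.0224 CPM that 3 counts over the whole LL group would give. On the same floor PP, with 131 counts, was at least 32.05-fold higher than LL, and without PP replicate 3, which held 89 of the counts, at least 13.5-fold. The PP excess came from replicates 2, 3 and 7, at 1.37, 2.04 and 0.8935 CPM. The other PP libraries held 0 to 0.0514 CPM, so the excess does not hold across the PP group. PL held 15 counts in all, 12 of them in PL replicate 1 at 1.25 CPM, while the other 4 PL libraries held 0 to 0.0988 CPM.

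Across the 24 libraries the levels of G20799 and G21619 had a Pearson correlation of 0.976, the highest of any pair in the set. No gene outside the set was as close to G20799, the next being G21382 at 0.833. The PL and LP libraries that chose the set enter these correlations too. The copies carry the same name, and how reads that match both were counted is not stated, so their values cannot be taken as separate measurements.

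G13000, a hypothetical protein by the study's annotation, was at 1.56, 1.47, 0.296, 0.0876 and 3.01 CPM in PL oocytes, against 18.6, 13.9, 11.2, 38.1 and 36.8 CPM in LP oocytes. PP oocytes held 0.715 to 34.1 CPM (median 14.6) and LL oocytes 0.661 to 6.14 CPM (median 4.09). PL was low throughout, LP was above every LL library, and the PP libraries fell into 5 at 4.31 CPM or more and 2 under 1 CPM. G13333, without a name, was at 13.7, 0.668, 1.22, 1.58 and 17.98 CPM in PL oocytes, against 18.5, 29.2, 27.6, 25.1 and 18.9 CPM in LP oocytes. PP oocytes held 0.617 to 16.3 CPM (median 1.24) and LL oocytes 0.578 to 52.8 CPM (median 24.3). LP was thus near the LL level and above every PP library, and 3 of the 5 PL libraries were at the PP level, while PL replicates 1 and 5 lay near the LP libraries.

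G17600, named as the ammonium transporter Rh type B-B, belongs to the Rh glycoproteins, membrane channels for ammonia. It was at 0.831, 2.403, 1.65, 2.02 and 1.798 CPM in PL oocytes, against 3.81, 12.5, 7.17, 22.6 and 5.46 CPM in LP oocytes. PP oocytes held 1.65 to 8.15 CPM (median 4.42) and LL oocytes 3.77 to 64.9 CPM (median 27.9). The order of the group means was LL, LP, PP and PL, and PL lay under every LL library. G03011, named as synaptic vesicle 2-related protein, a relative of membrane transporters, was likewise lowest in PL. It was at 4.78, 4.67, 4.25, 3.504 and 3.41 CPM in PL oocytes, against 9.29, 6.67, 10.3, 25.3 and 40.9 CPM in LP oocytes, with 4.33 to 13.03 CPM (median 6.09) in PP and 5.66 to 39.5 CPM (median 15.5) in LL oocytes. PL was under every LL library and close to the lower PP libraries.

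G15318, named as mitochondrial histidine triad nucleotide-binding protein 2, was the most abundant of the 8 genes with a study annotation. It was at 36.97, 23.1, 53.7, 35.6 and 35.6 CPM in PL oocytes, against 113, 94.6, 95.5, 86.5 and 68.8 CPM in LP oocytes. PP oocytes held 12.5 to 59.8 CPM (median 38.1) and LL oocytes 49.9 to 108 CPM (median 74.3). PL thus stood with PP, and LP with LL and above every PP library. Its study annotation, like those of the other 7, comes from a list the study chose on these samples, and is not independent of the differences given here.

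G25550 and G26103 were low in PL and at a few CPM elsewhere. G25550 was at 0.519, 2.403, 0.165, 0.175 and 0.155 CPM in PL oocytes, against 7.94, 8.802, 4.88, 3.02 and 4.38 CPM in LP oocytes. PP oocytes held 0.596 to 18.1 CPM (median 1.43) and LL oocytes 3.27 to 7.15 CPM (median 4.59), so PL was under every LL library. G26103 was at 1.66, 0.267, 0.955, 0.3504 and 0.6201 CPM in PL oocytes, against 9.76, 5.27, 4.17, 4.45 and 2.44 CPM in LP oocytes, with 0.144 to 17.1 CPM (median 2.17) in PP and 0.661 to 22.9 CPM (median 4.54) in LL oocytes. Neither gene reached 10 CPM in an LP library, and a PL library at 0.155 CPM stands for few reads.

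Of the remaining genes among the 12 with the largest LP excess, G25795 differed most between the morphs. It was at 3.53, 6.81, 3.26, 3.94 and 2.98 CPM in PL oocytes, against 19.3, 20.9, 17.6, 13.3 and 9.26 CPM in LP oocytes, with 3.81 to 28.2 CPM (median 10.7) in PP and 0 to 20.9 CPM (median 3.31) in LL oocytes. LL was split for this gene, with 3 of 7 libraries under 1 CPM and LL replicate 7 level with the highest LP library.

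G23202 was at 2.18, 0.267, 3.16, 2.102 and 3.504 CPM in PL oocytes, against 18.3, 12.1, 8.67, 4.36 and 6.32 CPM in LP oocytes, with 1.101 to 11.9 CPM (median 4.65) in PP and 0.413 to 7.45 CPM (median 5.099) in LL oocytes. G14349 was at 2.91, 4.01, 7.21, 4.21 and 1.58 CPM in PL oocytes, against 13.2, 23.7, 10.6, 19.5 and 7.83 CPM in LP oocytes, with 4.11 to 16.4 CPM (median 8.59) in PP and 3.93 to 53.3 CPM (median 22.0) in LL oocytes. G14039 was at 7.27, 7.74, 3.69, 3.94 and 4.43 CPM in PL oocytes, against 25.6, 28.9, 26.1, 10.1 and 8.33 CPM in LP oocytes, with 4.84 to 47.4 CPM (median 8.63) in PP and 3.38 to 19.5 CPM (median 9.602) in LL oocytes. The PP and LL libraries of these 3 genes overlapped both crosses.

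**Figure D2:**
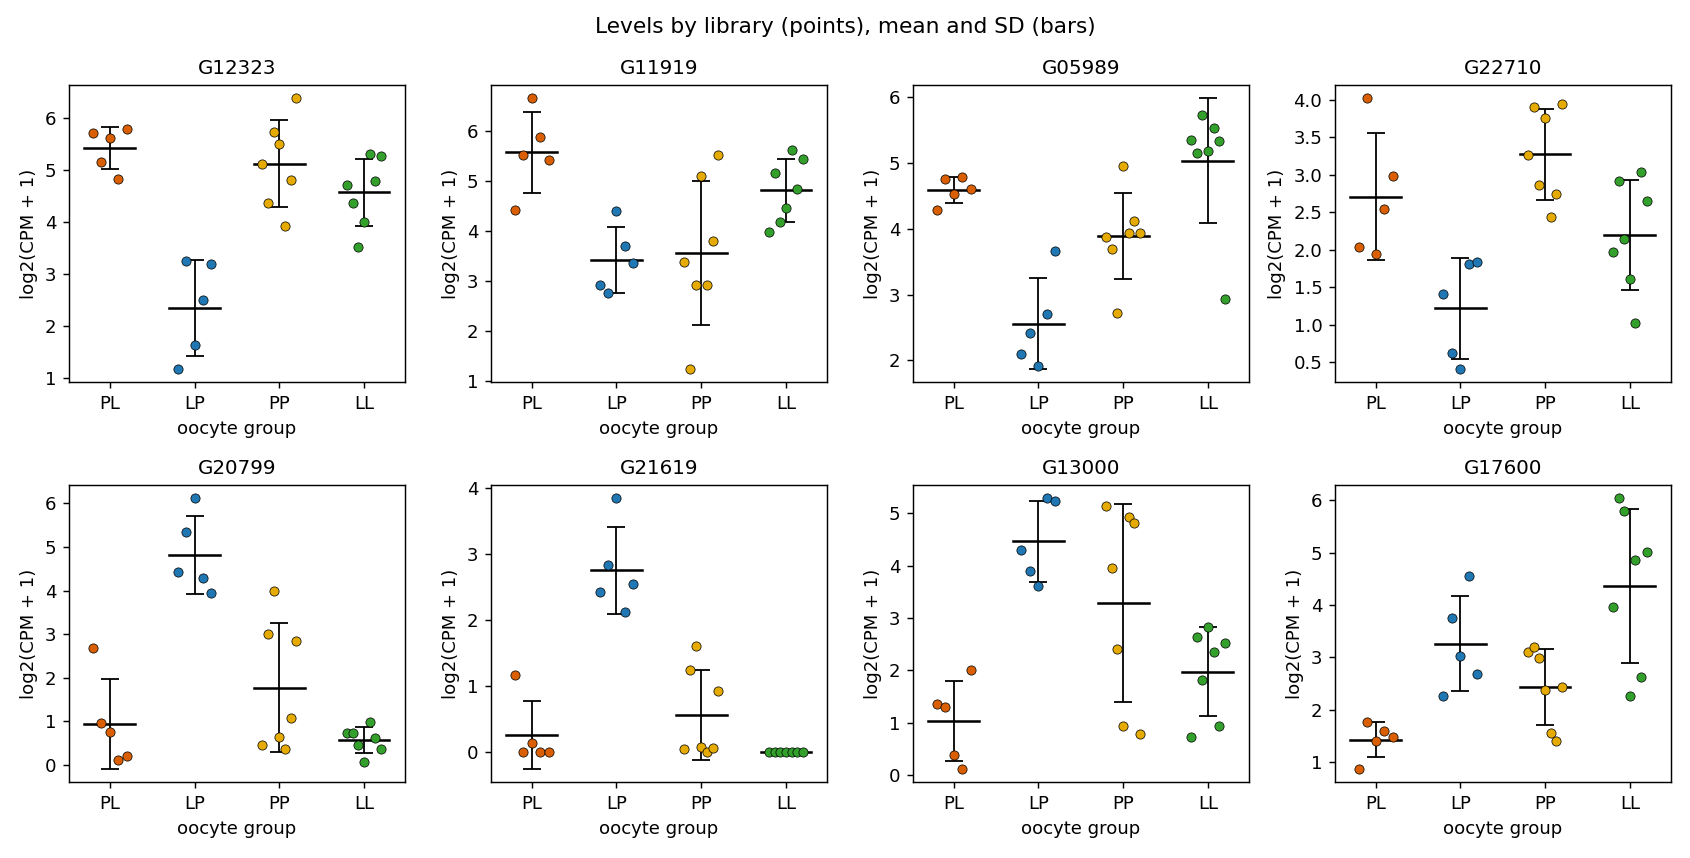
Levels of 8 of the genes by library on the log2(CPM + 1) scale, with the mean and SD of each group (5 PL, 5 LP, 7 PP and 7 LL libraries). G12323 is low in LP alone, G20799 and G21619 are high in LP with LL at or near 0, and G17600 is lowest in PL and highest in LL.

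At the other end of the set the differences were smallest. G04624, the last gene taken, was the most abundant of the 60 in PL, at 792, 906, 902, 934 and 795 CPM in PL oocytes, against 446, 692, 453, 565 and 594 CPM in LP oocytes, a difference of 0.67 on the log2 scale. Just above it stood G15258 at -0.70 and G00655 at -0.69, and the first genes left out were G01953 at -0.67, G22212 at 0.67 and G20377 at -0.66. Away from that end, G05903 had the highest LP mean of the set, 711.9 CPM, against 327.8 CPM in PL. Over the 24 libraries the median of the mean levels was 13.1 CPM for the 60 genes and 31.0 CPM for the 6808 coding genes. In 20 of the 60 genes at least 1 library was under 1 CPM, which held for 15.3% of the coding genes, and 22 of the 60 were at 5 CPM or more in all 24 libraries, against 61.2% of the coding genes.

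The edgeR quasi-likelihood fit of all 24 libraries, at an adjusted p under 0.1 with over 1.5-fold change, called 1 of the 60 genes between PL and LP, G12323, with a fitted log2 fold change of 3.28 (SE 0.52). Over all 10782 genes tested it called 0.0185%, namely 2. An unadjusted p under 0.05 was given to 52 of the 60, beside 796 of all 10782 genes. DESeq2 called 19 of the 60, with 0.878% of genes called over all. The rule used these same values, so neither count says anything more about the genes. The G12323 call was lost without LP replicate 3. The count was 2 without PL replicate 2, LP replicate 5, PP replicate 3 or LL replicate 7 and 3 without PL replicate 1. Over all genes, 0 were called without LP replicate 3 and 3 to 8 without each of these other libraries. No gene of the set was called in a fit of the 10 F1 libraries alone, where 55 had an unadjusted p under 0.05. That fit called 0 of all 9074 genes tested, and 734 of them had an unadjusted p under 0.05.

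The rule left the morphs free apart from asking that they overlap, so whether a gene leaned the same way between PP and LL could be read. PP minus LL had the same sign as PL minus LP, the direction of the mother's morph, in 25 of the 60 genes, or 41.7%. Over the 6808 coding genes that share was 45.9%. Among the genes higher in PL it was 8 of 22 and among those higher in LP 17 of 38. With the 11 PP and LL libraries that do not carry the label of technical replicates it was 26 of 60, beside 46.3% of the coding genes. With the 3 labelled libraries alone, 1 PP and 2 LL, it was 31 of 60, beside 45.1%.

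PP minus LL was under 0.5 in size on the log2 scale in 33 genes, or 55.0%, beside 68.6% of the coding genes. It was over 1 in 12 genes, or 20.0%, beside 9.53% of the coding genes, and its size passed that of PL minus LP in 5. Of the 12, 5 leaned the way of the mother's morph. These were G13333 (-2.34 for PL minus LP and -2.54 for PP minus LL), G17600 (-1.84 and -1.93), G03011 (-1.63 and -1.03), G22710 (1.49 and 1.08) and G15318 (-1.32 and -1.01). In the other 7 the sign between the crosses was the opposite of that between the morphs.

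Of these, G20799 differed by -3.88 for PL minus LP and 1.21 for PP minus LL, G13000 by -3.43 and 1.30, and G25795 by -1.73 and 1.66. All 3 were higher in LP and in PP. G11919 differed by 2.14 and -1.25, G05989 by 2.03 and -1.14 and G15660 by 0.96 and -1.38, higher in PL and in LL. G18761 was the last, at -0.78 and 1.34. G05989, G11919 and G15318 held a smaller or reversed PP minus LL in the 3 labelled libraries, at -0.20, 0.39 and 0.16, against -1.51, -1.45 and -1.32 in the other 11, and in G13000 it was -0.96 in the 3, against 1.62 in the 11.

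**Figure D3:**
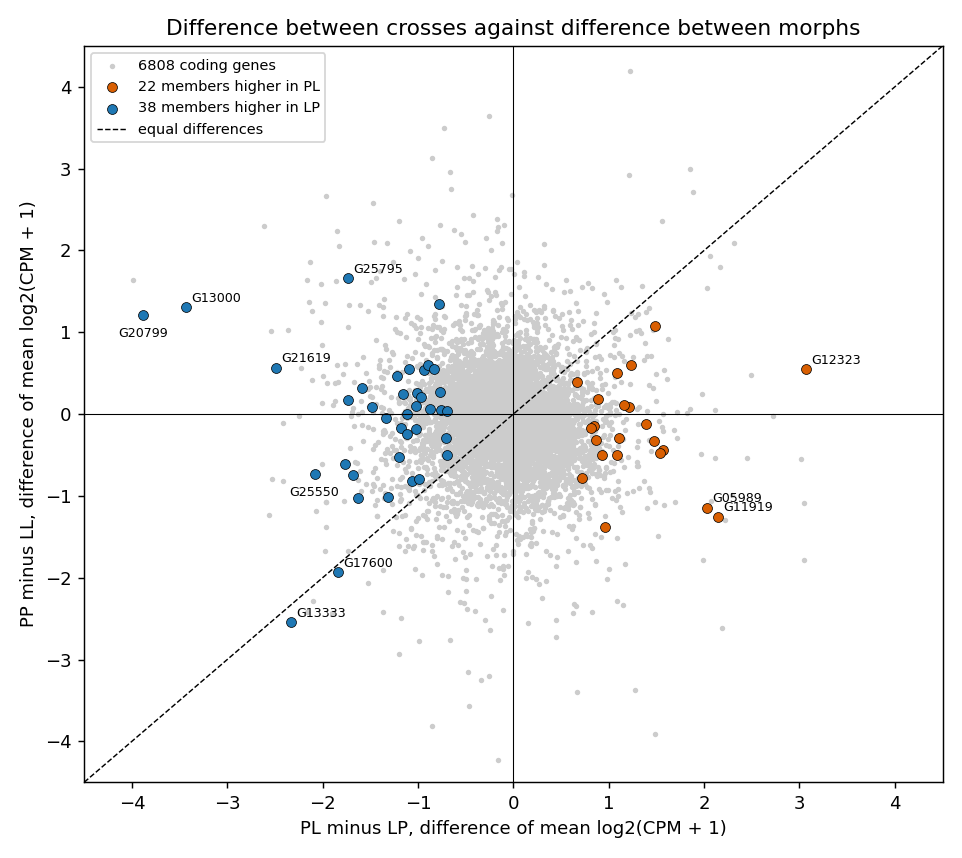
Difference of PL minus LP (x axis) against PP minus LL (y axis), as differences of mean log2(CPM + 1), for the 60 genes and, in grey, the 6808 coding genes, of which 3 fall outside the axes. Of the 60 genes 25 lie in the quadrants where both differences have the same sign, and G13333 and G17600 lie close to the line of equal differences.

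The edgeR fit of the 14 PP and LL libraries, at an adjusted p of at most 0.05 with over 1.5-fold change, called 1 gene of the set, G17600, lower in PP than in LL by a log2 fold change of -2.41 (SE 0.59, adjusted p = 0.0378). It tested 59 of the 60 and called 3.56% of all 9392 genes tested. Genes whose PP and LL libraries did not overlap had been left out by the rule, which holds this count down. The G17600 call was lost when any of 9 of the 14 libraries was left out, PP replicates 1, 4, 5, 6 and 7 and LL replicates 2, 3, 5 and 7. The count was 3 without PP replicate 3, with 506 of 9482 genes called over all. DESeq2 called 10 of the 60, with 8.5% of genes called over all, G17600 among them.

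The mean of the 14 PP and LL libraries lay between the means of the crosses in 50 of the 60 genes. That held for 41.6% of the coding genes, among which PL and LP were not chosen to be apart. The crosses then departed from that mean in opposite directions, which does not set either of them apart from a morph. G15318, where PL stood with PP and LP with LL, is among the 50. PL was the farther from the mean of the morphs in 28 genes and LP in 32, while PL was the farther in 56.1% of the coding genes. The farthest departures were of LP, in G20799 (3.65 on the log2 scale, with PL at -0.22), G12323 (-2.49, with PL at 0.57) and G21619 (2.47, with PL at -0.02). The farthest of PL were in G17600 (-1.98, with LP at -0.14), G25550 (-1.61, with LP at 0.47) and G13000 (-1.60, with LP at 1.84).

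In 2 genes a cross lay outside all 14 libraries of the morphs, and in both it was LP, below them in G12323 and above them in G21619. Of the coding genes 0.0294% had LP below and 0.0734% LP above all 14, and PL lay above all 14 in none. Both placings held on both other scalings. Leaving a library out cannot undo such a placing, so the count of 2 could then only stay or rise. The count of 2 became 6 without PP replicate 7, when PL also lay above the rest in G01446, G03045 and G03046 and below it in G03011. It became 4 without LP replicate 5, with LP above in G20799 and below in G05989, and 4 without PL replicate 2, with PL above in G15857 and below in G25550.

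**Figure D4:**
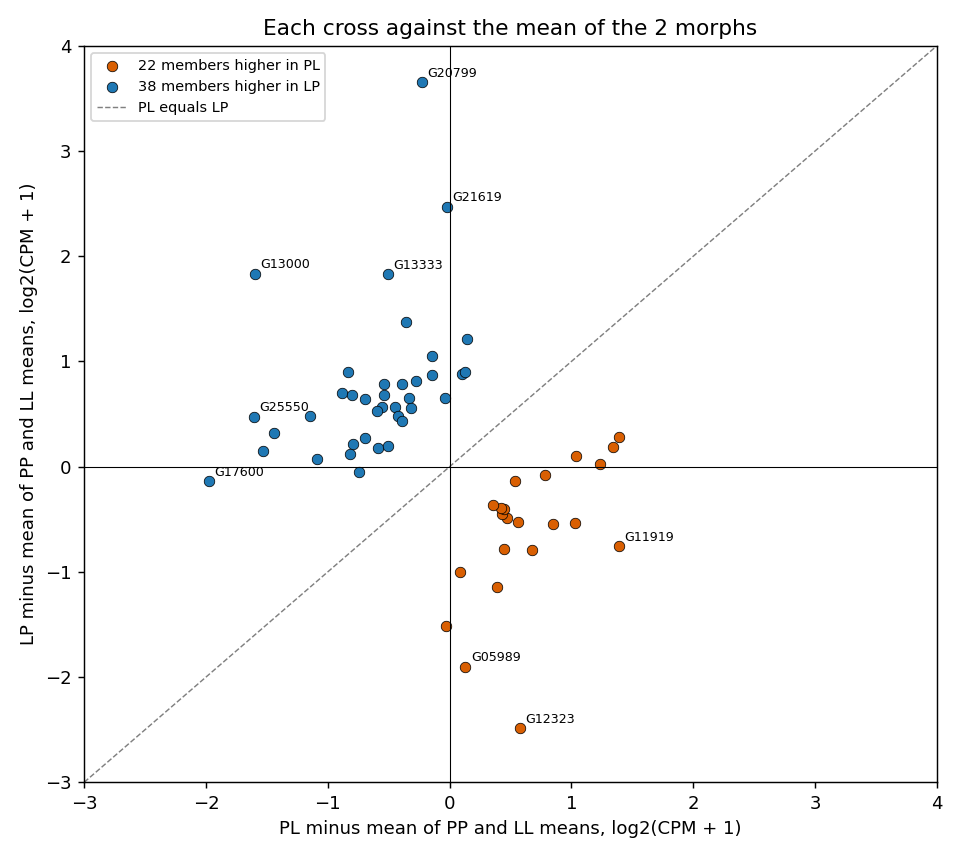
Departure of PL (x axis) and of LP (y axis) from the mean of PP and LL, in log2(CPM + 1), for the 22 genes higher in PL and the 38 higher in LP. G20799, G21619 and G12323 depart in LP with PL nearer the mean of the morphs. G17600 departs in PL with LP near that mean, between PP and LL.

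Set against single morphs, PL oocytes overlapped PP in 57 and LL in 54 of the 60 genes, and LP oocytes overlapped PP in 54 and LL in 54. Non-overlap in the coding genes was 1.34% for PL with PP, 1.45% for PL with LL, 1.18% for LP with PP and 1.79% for LP with LL. The crosses had been chosen to lie apart, which makes one of them more likely to leave the range of a morph, and these shares are not set against each other further.

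The edgeR fit of all 24 libraries called 5 genes of the set between PL and PP, with 2.26% of all 10782 genes called. G03046 was higher in PL (log2 fold change 1.21, SE 0.29) and G13000 (-3.61, SE 0.92), G25550 (-2.87, SE 0.82), G15418 (-1.18, SE 0.29) and G16944 (-1.11, SE 0.26) were lower. Between PL and LL it called 3 genes, with 0.9% of all genes called, and all were lower in PL. They were G17600 (-3.83, SE 0.69), G14349 (-2.24, SE 0.56) and G03011 (-1.995, SE 0.51).

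Between LP and PP the fit called 6 genes, with 1.74% of all genes called. G15318 (1.14, SE 0.28) and G14861 (1.57, SE 0.43) were higher in LP, and G12323 (-3.03, SE 0.50), G22710 (-2.69, SE 0.58), G05989 (-1.50, SE 0.42) and G12843 (-1.54, SE 0.41) were lower. Between LP and LL it called 5 genes, with 1.16% of all genes called. G20799 was higher in LP (6.02, SE 1.03), as was G21619, for which the floor given above applies, and G12323 (-2.33, SE 0.48), G05989 (-2.69, SE 0.45) and G18198 (-1.62, SE 0.40) were lower. The call of G05989 between LP and PP (adjusted p = 0.0978) was kept in 4 of the 24 fits that left out 1 library, that of G14861 in 13, and that of G25550 between PL and PP in 11. G03046, G15418, G16944, G14861 and G12843 are named here because they were called, after their values had been seen.

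Sequencing run and the F1 cannot be told apart in these 4 comparisons, and only the label of technical replicates is shared between F1 and some PP and LL libraries. With that label added to the fit the counts were 0 between PL and PP (0.0371% of all genes called) and 0 between PL and LL (0.0185%). They were 2 between LP and PP, namely G12323 and G22710 (0.167% of all genes), and 1 between LP and LL, G12323 (0.0464%). An unadjusted p under 0.05 was given in that fit to 20 genes of the set between PL and PP, beside 1069 of all 10782 genes. Between PL and LL it was given to 13 genes of the set, beside 995 of all genes. DESeq2 called 17 genes of the set between PL and PP (6.47% of all genes tested), 12 between PL and LL (3.7%), 10 between LP and PP (4.29%) and 11 between LP and LL (4.21%).

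The edgeR counts moved with single libraries. Between PL and PP the count was 1 without PL replicate 4, 2 without PL replicate 3, 3 without PL replicate 5 or PP replicate 6, 9 without PL replicate 2 or PP replicate 3 and 10 without PP replicate 7. Over all genes it was 244 with every library, and 76, 87, 96, 120, 459, 351 and 552 in these fits in the order given. Between PL and LL the count in the set was 1 without PL replicate 1, 3, 4 or 5, LL replicate 1, 3 or 4 or PP replicate 6, and 5 without PL replicate 2 or PP replicate 2. Over all genes it was 97 with every library, 15 to 77 in the fits with 1 gene of the set, 213 without PL replicate 2 and 120 without PP replicate 2. Between LP and PP the count in the set was 2 without LP replicate 1 or 3 and 3 without LP replicate 2 or 4 or PP replicate 1, 4 or 6. Over all genes it was 188 with every library and 106 to 161 in these fits. Between LP and LL the count in the set was 3 without LP replicate 3, where 37 of all genes were called, against 125 with every library. The calls of G17600 between PL and LL, of G12323 and G22710 between LP and PP, of G20799, G21619 and G05989 between LP and LL and of G16944 between PL and PP held with each of the 24 libraries left out in turn.

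Within groups the median SD of the log2 levels of the 60 genes was 0.43 in PL and 0.43 in LP, against 0.68 in PP and 0.63 in LL. Over the coding genes it was 0.50 in PL, 0.52 in LP, 0.60 in PP and 0.48 in LL. Genes with little spread in PL and LP are the more readily apart, so the low spread in the crosses cannot be told apart from the rule. The spread within PP and LL, on which the rule bears through the overlap it asks for, stood above that of the coding genes in both morphs, in genes of lower median level. Summed over the 22 genes higher in PL, PL libraries held 1484 to 1675 CPM and LP libraries 751.5 to 1012 CPM, with 889.2 to 1459 CPM in PP and 707.6 to 1412 CPM in LL libraries. Summed over the 38 higher in LP, PL libraries held 949.3 to 1356 CPM and LP libraries 2001 to 2870 CPM, with 1408 to 2067 CPM in PP and 1357 to 2096 CPM in LL libraries. G04624 made up 50.7% to 56.4% of the first sum in PL libraries and 59.3% to 68.4% in LP libraries. Without it the first sum was 692.1 to 773.0 CPM in PL and 298.3 to 348.7 CPM in LP libraries, with 212.6 to 798.0 CPM in PP and 446.0 to 602.1 CPM in LL libraries, so that PP overlapped both crosses. Gene by gene, PL lay above all 14 libraries of the morphs in none of the 22.

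Sample identifiers in the study's library list carry a letter whose meaning is not stated. PL replicates 3 to 5 share the letter J and LP replicates 1 to 3 the letter A, while the other 2 PL and 2 LP libraries each have one of their own. The difference between the crosses was larger between the J and A libraries than between the other 4 in 43 of the 60 genes and smaller in 17, with medians of 1.27 and 1.01 on the log2 scale. These libraries chose the genes, and the same share was not taken over the coding genes. For G20799 the difference was -4.93 between J and A and -2.30 between the others, for G13000 -3.10 and -3.94, and for G12323 3.38 and 2.58. With libraries summed by letter, 3 against 3, edgeR called 0 of the 60 genes and 40 had an unadjusted p under 0.05. It also called 0 of all 9599 genes tested, of which 189 had an unadjusted p under 0.05. Over the genes tested in the fit of 24 libraries, residuals of PL libraries sharing a letter correlated between -0.30 and 0.26, and those of other PL pairs between -0.43 and -0.0007. In LP the ranges were -0.12 to 0.35 and -0.62 to 0.15. If a letter marks a family, the libraries of a cross are fewer independent samples than 5, and its part in the differences was not tested.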

How the data were processed

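mRNA of unfertilized oocytes from 24 clutches was analysed (5 PL, 5 LP, 7 PP and 7 LL). The values are whole-number counts of reads per gene, deposited by the authors without normalization, after trimming (Trim Galore), removal of rRNA reads, alignment to the genome of planktotrophic worms (HISAT2) and counting (HTSeq). The strand setting of the counting is not given in the sources used here. Counts on no gene, 62.9% to 87.1% of a library, were left out of library totals and tests. CPM is the count over the total on genes times 1000000, and log2 levels add a pseudocount of 1.

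Counts were tested with the quasi-likelihood test of edgeR (4.0.16) in R (4.3.3), with TMM scaling and its filterByExpr step for low counts, with Benjamini-Hochberg adjustment over all genes tested. PP against LL used those 14 libraries and all other contrasts the 24, with thresholds of an adjusted p of 0.05 and of 0.1 and a fold change over 1.5. The fit was also run on simulated counts with 200 genes changed in PL and no label or letter effects, and nothing is concluded from that run here. The PL and LP libraries that chose the genes also enter every contrast with a cross, and the contrasts share samples. Alternatives were DESeq2 (1.42.0), the median of ratios, no filter, a replicate block, the label of technical replicates, other sets of libraries, other scalings, minima and pseudocounts, and each library left out. Replicate numbers were checked for pairing, and residuals of same-numbered PL and LP libraries correlated between -0.083 and 0.211.

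The 60 genes, the lists and the tests were chosen with earlier results of these data known. Named are the 12 genes with the largest difference on each side, genes annotated by the study, genes called between PP and LL, and the 3 genes on each side of the limit. G03046, G05903, G12843, G14037, G14861, G14921, G14922, G15418, G15660, G16944, G18761 and G21382 were named after their values had been seen. Gene names and letters of sample identifiers were read from the study's supplementary tables. Genome positions, sequences and allele-specific reads were not analysed here.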

Additional observations from a re-analysis of the deposited data

Results flagged for a closer look

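Within each group of the 28 named genes, 1 library was looked for that stood apart from the others on the log2(CPM + 1) scale by Dixon's criterion at the 95% level, which chance passes in about 1 of 20 groups. Of 112 groups of values, 7 held such a library. In the casein kinase copy G21619 PL replicate 1 stood above the other PL libraries, at 1.25 CPM. In G25550 PL replicate 2 was the highest of PL, at 2.40 CPM, and in G00655 LP replicate 2 the highest of LP, at 23.9 CPM. In G13333 PP replicate 3 was far above the other PP libraries, at 16.3 CPM, and in G15318, the histidine triad protein, PP replicate 5 far below them, at 12.5 CPM. In the fumarate hydratase gene G05989 LL replicate 7 was the lowest of LL, at 6.64 CPM, and in G10522 LL replicate 3, at 0.375 CPM. Without that library PL minus LP was -2.72 in G21619, -2.37 in G25550 and -0.49 in G00655 on the log2 scale, the last under the lowest difference of the 60 genes.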

How the results depend on the processing

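The number of genes that meet the rule was 121 with a mean of at least 1 CPM and 305 with F1 libraries summed by letter, and 77 to 290 with a library left out. Of the 60 genes, 40 were taken again after TMM scaling, 44 with DESeq2 size factors, 20 by letter and 20 to 60 with a library left out. The count leaning the way of the mother's morph was 23 to 31 over the scalings, the other pseudocount and the sets of PP and LL libraries, and 22 to 31 with a library left out. Genes called between PL and LP were 19 with DESeq2 and 2 without a filter (0.0255% of all genes). They were 0 with the F1 libraries alone or summed by letter, where 0 of all genes were called. With DESeq2 they were 10 between PP and LL, 17 between PL and PP, 12 between PL and LL, 10 between LP and PP and 11 between LP and LL. Without a filter they were 1 between PL and LL (0.368% of all genes) and 3 between LP and PP (0.786%). Between PP and LL they were 6 in a fit of all 24 libraries (5.59% of all genes). They were 0 with the 11 unlabelled libraries (2.5%) or with PP replicates 5 and 6 summed (2.2%). In each of these 13 of the set had an unadjusted p under 0.05, beside 1650 of 9503 and 1553 of 9675 genes. The label as a covariate gave 0 between PL and PP, 0 between PL and LL, 2 between LP and PP and 1 between LP and LL. The cause of these moves was not tested. With a library left out the counts were 0 to 3 between PL and LP, 0 to 3 between PP and LL and 1 to 10 between PL and PP. They were 1 to 5 between PL and LL, 2 to 7 between LP and PP and 3 to 7 between LP and LL. In the same order the counts over all genes were 0 to 8, 170 to 506, 76 to 552, 15 to 213, 106 to 413 and 37 to 196. A cross lay outside all libraries of the morphs in 2 to 6 genes, a count that leaving a library out cannot lower. Replicate numbers do not pair the samples by any label, and the residuals of same-numbered PL and LP libraries passed 0.1 in 3 of 5 pairs, with 2 libraries best matched to their own number. With the replicate block the calls were 1 between PL and LP (0.00927% of all genes), 1 between PP and LL (1.82%) and 11 between PL and PP (6.07%). They were 8 between PL and LL (4.03%), 8 between LP and PP (4.01%) and 7 between LP and LL (3.87%).

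The scalings for the split between PL and LP, for crosses outside the morphs, for libraries under 1 CPM (20 to 21 genes) and for the spread within groups were chosen after seeing the data, as was leaving libraries out of the second of these. Over 28 named genes the sign of PP minus LL turned in 17 of 504 values, in 8 genes. With the 3 labelled libraries alone, which those values leave out, it turned in 10 of the 28, among them G13000, G11919 and G15318, whose PP minus LL was over 1 in size. That setting, and those leaving G04624 out of the sums and PP replicate 3 out of the level of G21619, were chosen after seeing the data. At 1 read worth up to 0.134 CPM in PL, genes at a few CPM, with 22 gaps between the crosses under 1 CPM, are the least certain of the set.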
